A study of Mus musculus with 12 samples.

Results

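The 9 dual-specificity phosphatases Dusp1, Dusp3, Dusp4, Dusp5, Dusp6, Dusp7, Dusp8, Dusp10 and Dusp14 were followed in RNA of the adult mouse cortex. They were taken by symbol from a table of 21738 gene symbols, each was found on a single row, and all 9 passed the filter on low counts, with 11693 genes tested in all. Poly(A) RNA of whole cortex was sequenced from mice that were WT, HxD or KO for Tet1, with 4 libraries per genotype. TET1 is an enzyme that oxidises methylated cytosine in DNA; an HxD motif holds the iron of its catalytic centre, and catalytic and non-catalytic functions are contrasted in the title of the study. No treatment is named, and the labels give neither the strain, sex or exact age of the mice nor how the alleles were made, nor whether each library is a different animal, so the p-values rest on a spread between libraries that may be technical.

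MAP kinases are switched on by phosphorylation of a threonine and a nearby tyrosine in their activation loop, and dual-specificity phosphatases switch them off by removing both phosphates. Several of these enzymes are made in response to the kinases they restrain, which closes a negative feedback loop. In cortical neurons the family is known for limiting ERK, JNK and p38 signalling after synaptic activity, growth factors and stress hormones. Dusp1, Dusp4 and Dusp5 are inducible nuclear enzymes, Dusp6 and Dusp7 are cytoplasmic and prefer ERK, Dusp8 and Dusp10 prefer JNK and p38, and Dusp3 and Dusp14 are small members without the kinase-binding domain of the others.

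RefSeq promoter windows on GRCm38.p6 matched 8 of the 9 genes, and Dusp4 had none. The 250 bases before the start site are printed for Dusp1 and Dusp5, the inducible members whose KO libraries lay above all WT libraries. Each runs 5′ to 3′ on the gene's strand, and capitals mark the CRE and the E-box in Dusp1 and the CArG boxes in Dusp5.
Dusp1, chr17:26508473-26508722, minus strand: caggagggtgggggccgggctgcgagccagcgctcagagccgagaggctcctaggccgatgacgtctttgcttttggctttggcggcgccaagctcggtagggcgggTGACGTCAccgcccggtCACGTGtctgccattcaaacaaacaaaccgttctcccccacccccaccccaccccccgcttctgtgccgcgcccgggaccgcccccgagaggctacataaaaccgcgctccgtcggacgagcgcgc
Dusp5, chr19:53528895-53529144, plus strand: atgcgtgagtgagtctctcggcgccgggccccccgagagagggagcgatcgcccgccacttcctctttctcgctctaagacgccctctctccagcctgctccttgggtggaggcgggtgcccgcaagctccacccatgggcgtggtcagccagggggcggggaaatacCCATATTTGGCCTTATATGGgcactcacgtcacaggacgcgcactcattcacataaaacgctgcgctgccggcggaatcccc

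Motifs were searched on both strands of these 250-base windows. The cyclic AMP response element (CRE), TGACGTCA, began 143 bases before the start of Dusp1, was found 2 times before Dusp8 (which also has a RefSeq start further upstream), and occurs in 1.55% of the 32817 mouse windows. The CArG box, the site of serum response factor, was found 2 times before Dusp5, beginning 82 and 72 bases before its start, and occurs in 1.47% of windows. The E-box CACGTG was found in Dusp1 alone among the 8 genes, and occurs in 6.02% of windows. The AP-1 motif TGANTCA, present in 6.75% of windows, was found in none of the 8. The CRE core TGACG, which each full CRE holds on both strands, was found 3 times in Dusp1, 1 time in Dusp5 and 4 times in Dusp8, and occurs in 17.7% of windows. No motif searched was found before Dusp3, Dusp6, Dusp7, Dusp10 or Dusp14. These matches describe letters in these windows and not binding.

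Estimated counts summed to 5791642 to 10915574 per library, and KO held the shallowest libraries. For Tet1 itself, HxD 1 to 4 held 1, 0, 63 and 67 counts and every WT and KO library 0, so this gene cannot check the labels. Gapdh, a glycolytic enzyme of every cell, was listed at 0 in all 12 libraries, so no 0 here is read as a silent gene. All 6 excitatory neuron markers were counted in all 12 libraries, with summed levels in CPM (counts scaled by library total) that spanned 4890 to 7420 for WT, 4270 to 6900 for HxD and 4950 to 6670 for KO. In a whole tissue, fewer cells of a type and less RNA per cell cannot be told apart.

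**Figure D1:**
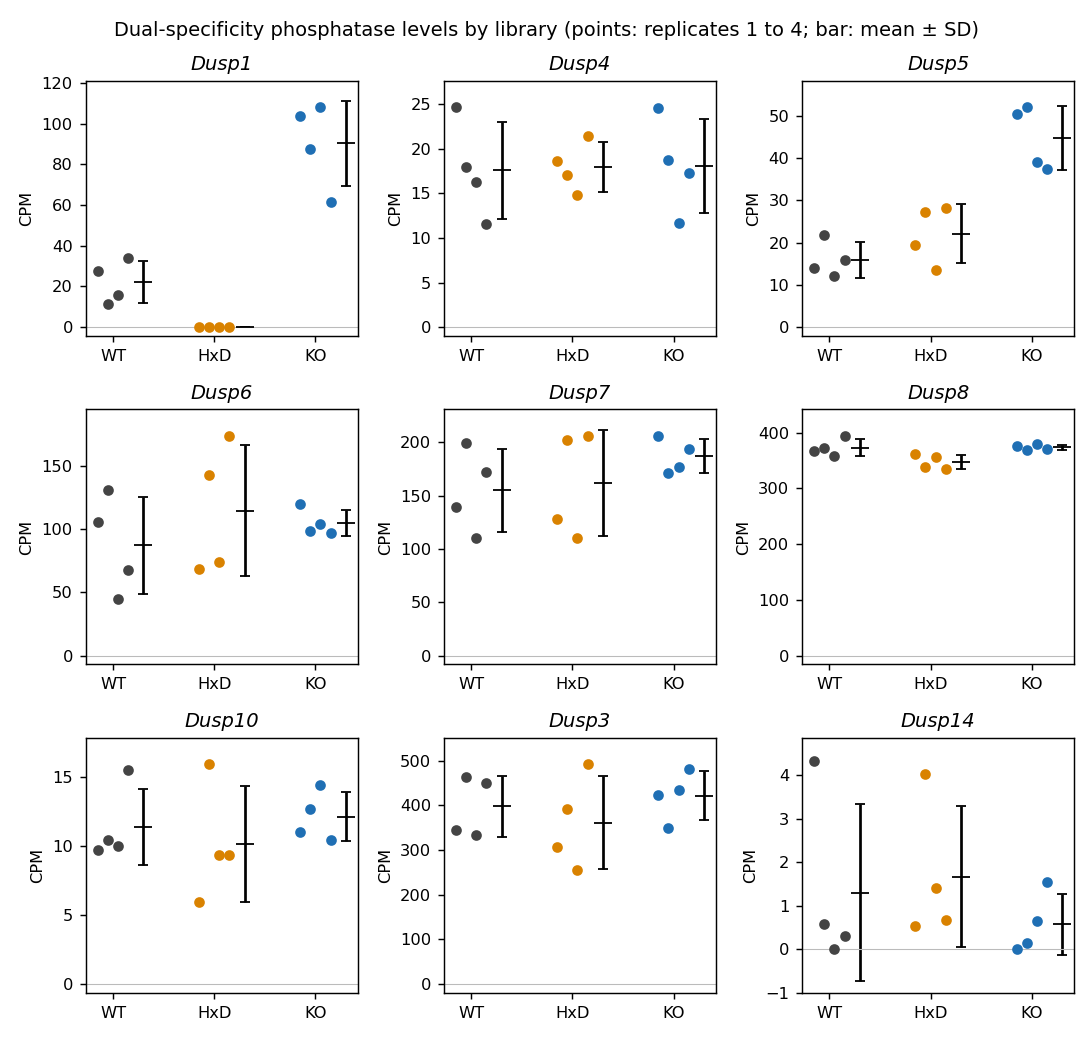
CPM of each phosphatase in every library, by genotype, with points for replicates 1 to 4 from left to right and a bar for mean ± SD (n = 4). Dusp1 and Dusp5 lie higher in every KO library than in any WT library, Dusp1 is listed at 0 throughout HxD, and Dusp8 stays between 335 and 394 CPM in all 12 libraries.

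Per length, Dusp3 and Dusp8 were the most abundant members in WT, at 89.5 ± 15.3 and 77.5 ± 3.21 CPM per kilobase of the longest GENCODE transcript (SD, n = 4). Their WT ranges overlapped. Dusp7 followed at 48.2 ± 12.1 and Dusp6 at 31.3 ± 13.8 CPM per kilobase, again with overlapping ranges. A gap separated these 4 genes from the inducible members Dusp1, Dusp5 and Dusp4, which stood at 9.55 ± 4.5, 6.44 ± 1.73 and 6.41 ± 1.98. Dusp10 was at 4.08 ± 0.986, overlapping Dusp4, and Dusp14 was lowest at 0.828 ± 1.29. In KO the level of Dusp1 per length was 39 ± 9.09, overlapping Dusp6 at 37.6 ± 3.72, and Dusp5 at 18.1 ± 3.06 lay above Dusp4 at 6.59 ± 1.92.

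Differences between genotypes were tested with edgeR's quasi-likelihood test over all genes, at a Benjamini-Hochberg adjusted p below 0.05. In HxD against WT, 1 of the 9 phosphatases was called, lower, where 0.898% of all genes were called and 0.411% lower. It was Dusp1, and the call rests on a listing at 0 in all 4 HxD libraries, which is not read as a level. In KO against WT none was called, where 0.154% of all genes were. At an unadjusted p below 0.05 there were 2, both higher, where 9.48% of all genes passed and 4.22% passed higher. The DESeq2 Wald test called these 2, and limma-voom called none, with 2 at an unadjusted p below 0.05. In KO against HxD, 1 was called, higher, where 1.02% of all genes were called and 0.445% higher. This was again Dusp1, against the same HxD listing at 0. At an unadjusted p below 0.05 there were 2 in KO against HxD, both higher, where 5.67% of all genes passed higher. The corresponding count in HxD against WT was 1, where 4.05% of all genes passed. The 3 comparisons share libraries and are not independent of each other. The median log2 fold change of the 9 was 0.03 in HxD against WT, 0.09 in KO against WT and 0.21 in KO against HxD, beside 0.01, 0.01 and 0.00 over all tested genes, so the middle member lay close to that of the whole table in the comparisons with WT.

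Dusp1, the founding nuclear phosphatase of stress and growth factor responses, showed the widest contrast among the 9. Its CPM in WT 1 to 4 were 27.6, 11.2, 15.8 and 33.8. In KO 1 to 4 they were 104, 87.5, 108 and 61.7. Every KO library lay above every WT library. The log2 fold change of KO against WT was 2.03 ± 0.37 (SE, 95% confidence interval 1.15 to 2.90), a 4.07-fold difference with an adjusted p of 0.144 (edgeR), so the difference did not pass over all genes. Over the alternatives its adjusted p ran from 6.9e-05 (DESeq2 Wald test) to 0.379, and 1 of 22 called it. An exact permutation test over the 35 distinct splits gave p = 0.0286, two-sided, the smallest that 4 against 4 libraries allow, and 0.0572 after adjustment over 6 such tests. Groups without overlap always give this smallest p, so it adds nothing to the separation of the libraries.

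In HxD the same gene was listed at 0 in all 4 libraries, against 118 to 337 estimated counts per library in WT and 361 to 1006 in KO. EdgeR called it lower in HxD against WT (adjusted p = 2.5e-04) and higher in KO against HxD (adjusted p = 7.9e-05). Limma-voom called neither, at adjusted p = 0.431 and 0.129. Dusp1 shares this form with other rows: 44 of the tested genes (0.376%) were listed at 0 in all 4 HxD libraries, and 21 of these had counts in every WT and KO library. The nearest counted neighbours on chromosome 17 had no such step, with Neurl1b at 899 to 1495 estimated counts in HxD and 1413 to 1792 in WT, and Atp6v0e at 179 to 246 and 228 to 262. Ergic1, also near Dusp1, held 1 estimated count in WT 4 and 0 in every other library. Neither a fold nor a biological level is given for Dusp1 in HxD, because Gapdh, a gene of every cell, is listed at 0 as well. How reads of Dusp1 were assigned in HxD was not tested.

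Dusp5, an inducible nuclear phosphatase specific for ERK, was likewise highest in KO. WT 1 to 4 stood at 14, 21.9, 12 and 15.8 CPM. HxD 1 to 4 stood at 19.5, 27.3, 13.5 and 28.3 CPM. KO 1 to 4 stood at 50.4, 52, 39 and 37.4 CPM. KO overlapped neither WT nor HxD, while HxD and WT overlapped each other. Libraries lay wholly above the other group for 3.25% of all genes in KO against WT and for 3.97% in KO against HxD. KO was 2.8-fold above WT (log2 fold change 1.48 ± 0.26, 95% interval 0.91 to 2.06, edgeR adjusted p = 0.0785) and 2.02-fold above HxD (1.01 ± 0.26, interval 0.44 to 1.59, adjusted p = 0.154). Neither passed over all genes. Without HxD replicate 3, which is no library of this comparison, KO against WT reached an adjusted p of 0.0411, and the DESeq2 Wald test gave 3.8e-05. These were the only calls among 22 alternatives, over which the adjusted p reached 0.226. KO against HxD was called by 1 of 22, the DESeq2 Wald test, with an adjusted p of 0.0137 to 0.767. HxD against WT was 0.47 ± 0.26 (interval -0.10 to 1.04, adjusted p = 0.999).

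Dusp4, the remaining inducible nuclear member, acts on ERK and JNK and showed no such order. It stood at 24.6, 17.9, 16.2 and 11.5 CPM in WT 1 to 4. HxD 1 to 4 held 18.6, 17, 14.8 and 21.4 CPM, and KO 1 to 4 held 24.5, 18.7, 11.7 and 17.3. The HxD range lay inside those of WT and KO, which nearly coincided. The log2 fold change was 0.04 ± 0.27 in KO against WT, and its 95% interval of -0.55 to 0.62 excludes the size seen for Dusp1 and Dusp5. Whether Dusp4 differs from them in its response was not tested as an interaction.

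**Figure D2:**
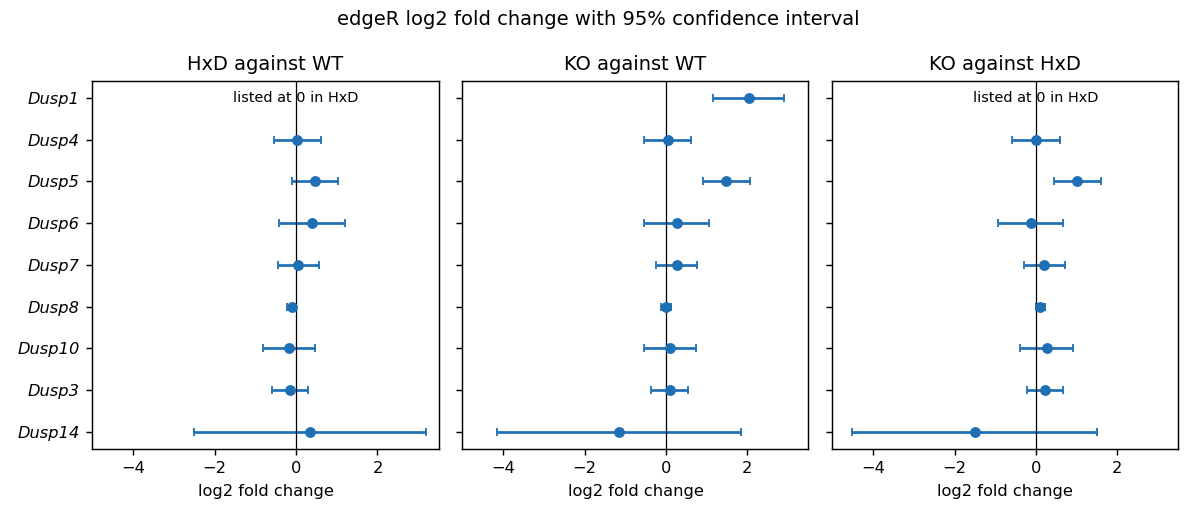
Log2 fold change of each phosphatase (x axis) in the 3 comparisons, with points for the edgeR estimate and bars for the 95% confidence interval; Dusp1 has no estimate drawn where HxD is listed at 0. Only Dusp1 (1.15 to 2.90) and Dusp5 (0.91 to 2.06) have intervals above 0 in KO against WT, before adjustment over all genes.

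The cytoplasmic ERK phosphatases varied more within WT and HxD than between genotypes. Dusp6, a feedback inhibitor that ERK signalling itself induces, stood at 106, 131, 44.7 and 68.2 CPM in WT 1 to 4 and at 68.3, 143, 74.2 and 174 in HxD 1 to 4. KO 1 to 4 lay close together at 120, 98.9, 104 and 97.2 CPM, inside the range of both other genotypes. Its log2 fold changes were 0.39 ± 0.36 in HxD and 0.26 ± 0.36 in KO against WT (edgeR adjusted p = 0.999 and 0.906). Dusp7, the closest relative of Dusp6 here, was at 139, 199, 110 and 172 CPM in WT 1 to 4, at 128, 202, 110 and 206 in HxD, and at 206, 171, 177 and 194 in KO. In HxD, libraries 2 and 4 were high and 1 and 3 low for both genes, and Dusp7 had the same order in WT. KO against WT for Dusp7 was 0.27 ± 0.23 (interval -0.24 to 0.77), below the spread between libraries.

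Dusp8, a phosphatase of JNK and p38 that is prominent in brain, was the steadiest of the 9. Its CPM were 366, 372, 358 and 394 in WT 1 to 4 and 361, 338, 356 and 335 in HxD 1 to 4. In KO 1 to 4 they were 375, 368, 379 and 371, so the highest library of all 12 exceeded the lowest by 1.18-fold. KO against WT was 0.00 ± 0.05 on the log2 scale with a 95% interval of -0.11 to 0.12, the narrowest of the family. KO lay above all HxD libraries, yet by only 0.10 ± 0.05 (edgeR adjusted p = 0.478). Dusp10, which acts on the same kinases, was far lower, at 9.7, 10.4, 9.97 and 15.5 CPM in WT, 5.92, 15.9, 9.37 and 9.36 in HxD, and 11, 12.7, 14.4 and 10.4 in KO. These ranges overlapped, and KO against WT was 0.09 ± 0.29.

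Among the small members, Dusp3, which acts on ERK and JNK, was abundant in all genotypes. It stood at 346, 463, 333 and 450 CPM in WT 1 to 4, 306, 393, 255 and 492 in HxD, and 423, 349, 435 and 481 in KO. The genotypes overlapped, with -0.14 ± 0.20 in HxD and 0.09 ± 0.20 in KO against WT. Dusp14 was near the limit of the table, with 38, 6, 0 and 3 estimated counts in WT 1 to 4, 5, 31, 12 and 7 in HxD, and 0, 1, 6 and 9 in KO. Single libraries set its group means, and its interval for KO against WT ran from -4.15 to 1.84, so no difference was detectable at this depth (exact permutation test, two-sided, p = 0.714).

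Across the 12 libraries Dusp7 moved with Dusp3 and with Dusp6. Of the 21 pairs among the 7 members counted in every library, Dusp3 with Dusp7 had the highest Pearson correlation of log2 CPM, with r = 0.87 and Spearman rho = 0.79 (permutation p = 4.4e-04 and 0.00341, adjusted 0.00924 and 0.0358). For Dusp6 with Dusp7, r was 0.81 and rho 0.80 (permutation p = 0.00123 and 0.00278, adjusted 0.0129 and 0.0358). Without the 2 libraries farthest from the median, r was 0.76 and 0.70. Dusp3 with Dusp6 did not pass, with r = 0.56 and rho = 0.49 (permutation p = 0.0582 and 0.11, adjusted 0.257 and 0.317), and 0.03 within KO. Dusp5 with Dusp7 had r = 0.72 over all libraries (permutation p = 0.0104, adjusted 0.0727), 0.95 in WT, 0.97 in HxD and -0.03 in KO, each over 4 libraries. These pairs share libraries, depth and tissue make-up.

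Dusp7 also moved with markers of excitatory neurons, and Dusp3 passed after adjustment by Pearson correlation but not by Spearman. Against the summed level of 6 such markers (Slc17a7, the vesicular glutamate transporter of cortical neurons, and Camk2a among them), Dusp7 had r = 0.88 and rho = 0.86 (permutation p = 1.0e-04 and 5.5e-04, adjusted 0.0049 and 0.0196 over 49 relations of 7 genes with 7 marker lists). Within WT, HxD and KO its r was 0.93, 0.98 and 0.79, and without the 2 outermost libraries 0.84. Dusp3 had r = 0.87 and rho = 0.79 (permutation p = 3.0e-04 and 0.0034, adjusted 0.00637 and 0.0555), with 0.87, 0.90 and 0.96 within the genotypes and 0.80 without the outermost libraries. Dusp6 did not pass, at r = 0.68 and rho = 0.71 (permutation p = 0.0142 and 0.0129, adjusted 0.116 and 0.103), with 0.24 within KO. Dusp10 instead moved with the summed level of 6 myelin markers, with r = 0.83 and rho = 0.85 (permutation p = 3.9e-04 and 8.0e-04, adjusted 0.00637 and 0.0196), 0.99 in WT, 0.83 in HxD and 0.35 in KO, and 0.84 without the outermost libraries. The part of cell make-up in these levels was not tested.

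**Figure D3:**
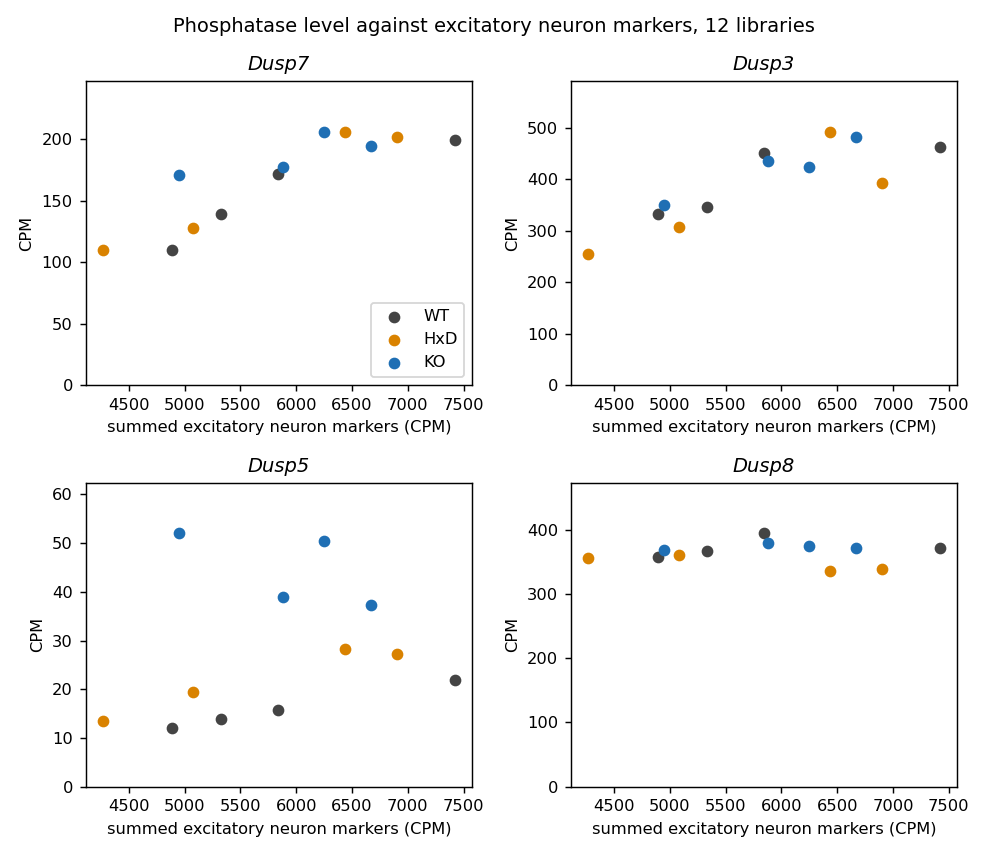
CPM of Dusp7, Dusp3, Dusp5 and Dusp8 (y axes) against the summed CPM of 6 excitatory neuron markers (x axes), 1 point per library, coloured by genotype. Dusp7 and Dusp3 climb with the markers in all genotypes, Dusp8 is flat, and the 4 KO libraries of Dusp5 (37.4 to 52 CPM) lie above all others at marker levels that WT and HxD also have.

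For Dusp1 and Dusp5, the excitatory marker sums of KO lay inside the WT range, with medians of 6070 CPM in KO and 5580 in WT. Myelin marker sums of KO also lay inside the WT range, at 3010 to 3560 CPM against 1870 to 4440 in WT and 1360 to 3980 in HxD. Their medians differed more, at 3240 CPM in KO, 1930 in WT and 1850 in HxD. The 6 striatal markers are for tissue next to the cortex. They summed to 189 to 314 CPM in KO, 239 to 484 in WT and 195 to 849 in HxD. No such marker was at 0 in all libraries, but 2 were at 0 in some WT library, 1 in some HxD library and 2 in some KO library. The medians of the sums were 231 CPM in KO, 292 in WT and 462 in HxD. Gene by gene, all 6 lay below WT in KO, with a median log2 fold change of -1.55. All 6 also lay below HxD in KO (median -2.76) and above WT in HxD (median 1.02), and none was called. As covariates, the mean log2 CPM of each list was used and not its sum. Striatal markers listed at 0 in single libraries enter that mean, and their part in the shifts below was not tested. With the striatal markers as a covariate, an alternative chosen after seeing the data, KO against WT for Dusp5 was 1.15 ± 0.24 and for Dusp1 2.01 ± 0.62 (edgeR adjusted p = 0.213 and 0.379), and KO against HxD for Dusp5 was 0.43 ± 0.30 (adjusted p = 0.767) and HxD against WT 0.72 ± 0.22 (0.598). With myelin markers as the covariate, KO against WT was 1.35 ± 0.22 for Dusp5 and 1.92 ± 0.36 for Dusp1. The striatal covariate also moved Dusp6, from -0.13 ± 0.36 to -1.02 ± 0.39 in KO against HxD and from 0.39 ± 0.36 to 0.85 ± 0.30 in HxD against WT (adjusted p = 0.477 and 0.919). With the myelin covariate these were -0.43 ± 0.38 and 0.54 ± 0.35. The slope of log2 CPM on log2 transcript length was -0.10 to -0.01 in KO, 0.00 to 0.09 in WT and -0.11 to 0.08 in HxD, and its part in these results was not tested.

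By pattern over the 12 libraries, out of 8491 candidates, the genes most like Dusp5 were Cebpb (r = 0.94), a transcription factor of inflammatory and hormonal responses, Ppp1r3g (0.93), a glycogen-targeting phosphatase subunit, and Pyroxd1 (0.93). Those most like Dusp7 were Tspan17 (0.96), Zfpm1 (0.96) and Vasn (0.95), and for Dusp3 they were Trim37 (0.97), Lrrc8b (0.95) and Daglb (0.95). For Dusp6 they were Herpud2 (0.93), the beta-1 adrenergic receptor gene Adrb1 (0.91) and Zfp180 (0.91). For Dusp4 they were Sbk1 (0.89), Pcdhga8 (0.85) and Cd93 (0.83), and for Dusp8 Mccc2 (0.91), Taf13 (0.83) and Sspn (0.83). Each is the top of a ranking of Pearson r over shared libraries and is given as a description.

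Other genes of the pathway were read from fixed lists. Among 14 tested of 22 other dual-specificity phosphatases, none was called in any comparison, and in KO against WT 7 lay above and 7 below WT, where 50.9% of all tested genes lay above. The slingshot phosphatase Ssh2, which dephosphorylates cofilin, stood at 58.2 ± 4.04 CPM in KO and 73.7 ± 5.64 in WT (edgeR adjusted p = 0.238), and Dusp18 at 30.6 ± 1.7 against 48.5 ± 13.6 (adjusted p = 0.354). Of the ERK cascade from Sos and Ras to the kinases, 0 of 22 tested genes were called, 5 had an unadjusted p below 0.05, all lower (5.26% of all genes were), and 19 lay below WT with a median log2 fold change of -0.13. Its leading rows jump within a genotype: Map2k2, a kinase of ERK, held 306, 527, 5 and 443 estimated counts in WT 1 to 4, 1, 0, 416 and 339 in HxD and 4, 0, 2 and 0 in KO. Araf, a RAF kinase, held 80, 28, 15 and 12 in WT and 0, 5, 2 and 4 in KO. In the JNK and p38 cascades 0 of 21 were called and 15 lay below WT, with a median of -0.14, led by the scaffold Mapk8ip2 (-0.15 ± 0.07) and the kinase Map3k4 (-0.46 ± 0.25).

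No other feedback inhibitor of ERK was called. Among 11 tested Sprouty, Spred and related genes and ETS factors, 5 lay above and 6 below WT in KO. Spred3, a membrane inhibitor of RAF activation, stood at 58.1 ± 4.69 CPM in KO, 78.9 ± 14 in WT and 89.1 ± 14.1 in HxD (edgeR adjusted p for KO of 0.352 and 0.104), and the EGF receptor inhibitor Errfi1 at 49.6 ± 9.14 against 39.4 ± 7.8 in WT (adjusted p = 0.565). Of 14 tested substrates and effector kinases, 0 were called and 12 lay below WT with a median of -0.19. Rps6ka2, an RSK kinase downstream of ERK, stood at 87.4 ± 9.63 CPM in KO and 140 ± 24 in WT (adjusted p = 0.157), and Elk1, a serum response cofactor that ERK phosphorylates, at 101 ± 13.7 against 129 ± 18.8 (adjusted p = 0.471). Among 7 tested other phosphatases of MAP kinases none was called. Ptpn5, a tyrosine phosphatase enriched in striatum, was at 68.5 ± 5.44 CPM in KO, 109 ± 19.6 in WT and 134 ± 45.8 in HxD (adjusted p = 0.346 and 0.0806), which is the order of the striatal marker sums, and Ptprr at 22.8 ± 3.3 against 29.1 ± 3.87 in WT.

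Dusp1 belongs to the genes that glucocorticoids induce, and Dusp1 and Dusp5 both to those that neuronal activity induces. Of 14 tested glucocorticoid-induced genes, 13 lay above WT in KO with a median log2 fold change of 0.58, where 50.9% of all tested genes lay above. In HxD 11 of the 14 lay above WT too, with a median of 0.10, and in KO against HxD 12 lay above, with a median of 0.55. In KO against WT 1 was called: Cebpd, at 22.5 ± 3.89 CPM against 7.84 ± 1.45 (edgeR adjusted p = 0.0453), where 0.154% of all genes were called. Over 22 alternatives the adjusted p of Cebpd ran from 3.9e-06 to 0.203 and 6 called it. Limma-voom (0.159) and the fit of only the 8 libraries compared (0.119) did not. Tsc22d3, which encodes the glucocorticoid-induced leucine zipper, stood at 153 ± 44.3 CPM in KO, above 45.3 ± 14.9 in WT and 48.1 ± 17.6 in HxD (adjusted p for KO of 0.094 and 0.0397). The second of these, KO against HxD, where 1.02% of all genes were called, was called by 7 of 22 alternatives, with an adjusted p of 5.4e-05 to 0.461. Of 15 activity-induced factors, 11 lay above WT in KO with a median of 0.71, and none was called, with Fosl2 at 110 ± 32.9 against 65.4 ± 10.5 CPM (adjusted p = 0.482) and Nr4a1 at 264 ± 73.1 against 103 ± 74.7 (adjusted p = 0.525). Of these 15 factors, 13 lay above WT in HxD too, with a median of 0.28. In KO against HxD 9 lay above, with a median of 0.27, and none was called in either comparison. Both lists were chosen with earlier results of these libraries known.

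**Figure D4:**
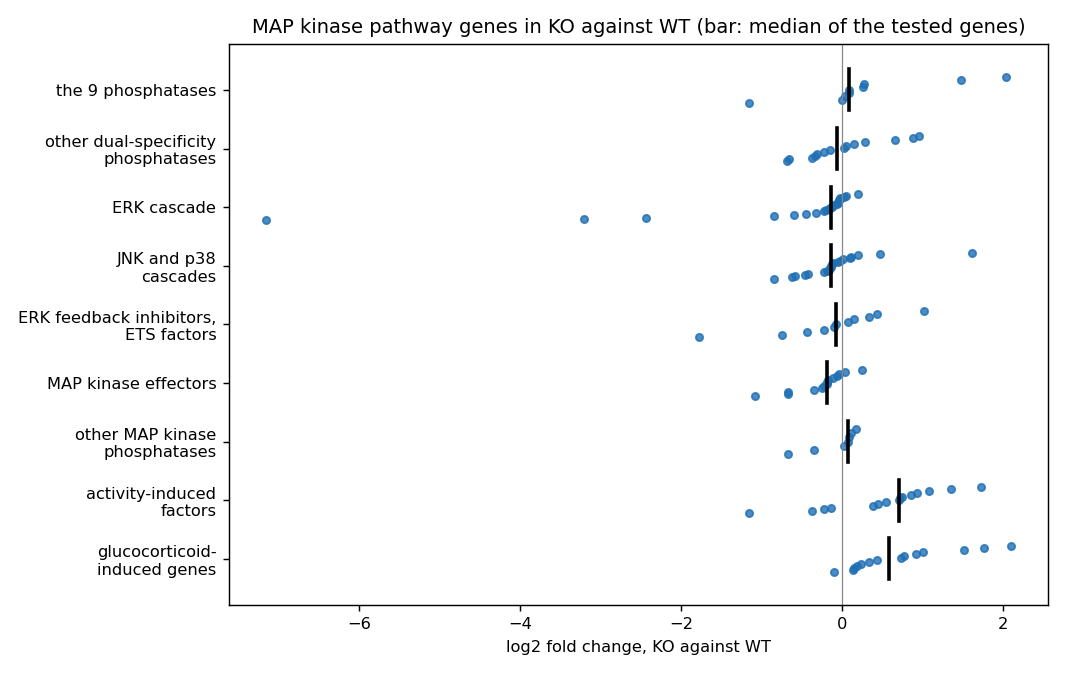
Log2 fold change of KO against WT (x axis) for the tested genes of each list, 1 point per gene, with a bar at the median of the list. The medians of the kinase cascades lie at -0.13 and -0.14 and that of the 9 phosphatases at 0.09, while activity-induced factors (0.71) and glucocorticoid-induced genes (0.58) lie to the right.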

How the data were processed

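The 12 libraries hold oligo d(T)-selected RNA of adult whole cortex, per the labels' protocols, and were grouped by genotype from their titles. Per the submitters' processing notes, StringTie 2.2.3, STAR 2.7.1a, SAMtools 1.9, Trim Galore 0.6.7 and FastQC are named, with mm10 and GRCm39 as builds and no role stated for any. For read assignment and strand setting, details were not given in the sources used. The authors deposited 1 estimated count per gene and library, without normalization, and rounding to whole numbers changed nothing. All columns were used.

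The 25 symbols on several rows (56 of 21769 rows, Dusp12 among them) were left out. EdgeR 4.0.16 in R 4.3.3 was fitted to all 12 libraries with TMM factors of 0.968 to 1.02, filterByExpr at a minimum count of 10, a robust quasi-likelihood fit and genotype as the only term (9 residual degrees of freedom), with two-sided tests adjusted by Benjamini-Hochberg over 11693 genes. CPM are per TMM-scaled library, and 0.5 was added for log2 values of single libraries. Limma 3.58.1 and DESeq2 1.42.0 served as alternatives. Correlation p-values come from 100000 permutations. Depth limits counting error only, since no molecular identifiers are named. The scripts were tested on simulated data.

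All 9 members are named. From each pathway list, genes called in any comparison are named, otherwise the 2 with the smallest p in KO against WT, and for each member counted in every library the 3 genes of at least 5 CPM most correlated with it (for Dusp10 these are not reported here). The members, lists and rule were chosen with earlier results of these data known, and the promoter motifs after the values were seen.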

Additional observations from a re-analysis of the deposited data

Results flagged for a closer look

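In 26 groups of 4 libraries with any spread, 2 had a library far from the others, where chance gives about 1 in 20 groups. Dusp10 stood at 15.5 CPM in WT 4, with 87.9% of the WT range between it and the next library. Myelin markers summed to 4440 CPM in that library, the highest of all 12. Dusp14 stood at 4.33 CPM in WT 1, with 86.8% of the range between it and the next library, on 38 estimated counts.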

How the results depend on the processing

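Alternatives were DESeq2 size factors, library size only, the DESeq2 Wald test, limma-voom, no filter and a minimum count of 30, a fit on only the 8 libraries compared, a replicate block, each library left out in turn and, added after seeing the data, the myelin or striatal markers as a covariate. Of the 9 phosphatases, limma-voom called 0 in HxD against WT and 0 in KO against HxD, where the other settings called Dusp1. The DESeq2 Wald test called 2 in KO against WT and 2 in KO against HxD, Dusp1 and Dusp5 each time. Leaving out 1 library gave 0 to 1 in KO against WT, 1 being Dusp5 without HxD replicate 3. Over all genes, the DESeq2 Wald test called 183 in HxD against WT, 289 in KO against WT and 387 in KO against HxD, beside 105, 18 and 119. In KO against WT the count was 0 with limma-voom (1145 at an unadjusted p below 0.05) and with the 8 libraries alone (1171), 9 with the striatal covariate, 12 to 35 with 1 library left out, and 35 without WT replicate 4.

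The replicate block gave 5 genes in KO against WT and changed no call among the 9 phosphatases. Same-numbered libraries deviated with r of -0.07 to 0.08, and the best match of a library in another genotype had its own number in 7 of 24 checks. No pairing by number was detected in these values, and a shared origin of same-numbered libraries was not tested otherwise.

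Some differences that were not called changed sign, and none was called after the change; among them only Dusp14 had a main value beyond 0.35 in size, -1.16 in KO against WT. Dusp8 in KO against WT was -0.01 with DESeq2 size factors, the stricter filter and the 8 libraries, and -0.02 without a filter and with the DESeq2 Wald test. Dusp4 in KO against HxD was 0.00 or -0.00 with DESeq2 size factors, the stricter filter and the 8 libraries, -0.02 without a filter and with the DESeq2 Wald test, -0.04 with the replicate block, -0.09 with limma-voom and -0.33 with the striatal covariate. With the striatal covariate, Dusp3 was 0.02 in HxD against WT, -0.15 in KO against WT and -0.17 in KO against HxD. In KO against WT that covariate gave -0.16 for Dusp4, -0.17 for Dusp6 and -0.00 for Dusp7, and -0.28 for Dusp7 in KO against HxD. With the myelin covariate Dusp10 was 0.06 in HxD against WT, -0.01 in KO against WT and -0.07 in KO against HxD, and Dusp7 was -0.07 in KO against HxD. With 1 library left out, HxD against WT ran from -0.13 to 0.23 for Dusp4, -0.09 to 0.20 for Dusp7, -0.47 to 0.01 for Dusp10 and -0.57 to 2.41 for Dusp14. KO against WT ran from -0.15 to 0.23 for Dusp4, -0.02 to 0.02 for Dusp8, -0.01 to 0.27 for Dusp10 and -2.20 to 0.91 for Dusp14, where 0.91 is without WT replicate 1. KO against HxD ran from -0.18 to 0.17 for Dusp4 and -0.32 to 0.13 for Dusp6. For the covariates and tools the cause was not tested.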
